A study of Mus musculus with 4 samples.

Results

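The 10 genes described here make up the core of the Hippo pathway as it is laid out in mammals: the TEAD transcription factors Tead1, Tead2, Tead3 and Tead4, their coactivators Yap1 and Wwtr1, and the kinases Lats1, Lats2, Stk3 and Stk4. They were taken by gene symbol from the array's annotation, which gave 16 probes of 55681 and 10 genes of 24278. The set was chosen by Tead2's measured values, with results of these arrays known: it was noted for genotype differences of opposite direction in the 2 sorts. Every genotype value below is therefore a description. RNA was measured on 4 single-colour Agilent arrays of cells sorted from adult mouse bone marrow, 1 array for each group. The groups were LSK cells (Lin-, c-kit high, Sca-1+) of SFRP5-transgenic mice, LSK cells of their WT littermates, the CLP-enriched sort (Lin-, c-kit low, Sca-1 low, IL7Rα+) of SFRP5-transgenic mice, and the same sort of WT littermates. LSK cells hold the blood stem cells and multipotent progenitors, and CLP are common lymphoid progenitors. The series was made to find genes that respond to SFRP5, a secreted Wnt antagonist. The promoter that drives the transgene, the number and sex of the mice and their exact age were not stated by the submitters in what was used here.

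In the Hippo pathway, a kinase relay restrains growth: the Ste20-type kinases encoded by Stk3 and Stk4 activate the kinases encoded by Lats1 and Lats2, and these phosphorylate the coactivators YAP1 and TAZ (the product of Wwtr1), which keeps them out of the nucleus. When the coactivators enter the nucleus they bind TEAD factors, which hold the DNA contact, and switch on growth and matrix genes. In blood cells the upstream kinase encoded by Stk4 is best known for its part in the survival and trafficking of lymphocytes.

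Levels are given as log2 of the processed signal relative to the 75th percentile of the same array, so 0 is the signal that 25 in 100 spots exceed. A probe counts as detected where the scanner software marked it well above background. The error after a ± sign is the spread between replicate spots of other probes of like signal on the same arrays, combined over the arrays compared. It does not cover differences between mice, sorts or amplifications. A group is a single array, so nothing checks a difference by replication, no test between groups was made, and precision is limited by how few arrays there are. "Higher" and "lower" describe these 4 arrays. In bulk RNA, fewer cells that express a gene and less RNA per cell cannot be told apart.

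The arrays differed in ways that touch the genotype comparison as a whole. Xist, the RNA of the inactive X chromosome, stood at 4.99 in SFRP5 LSK, against -6.61 in WT LSK, and at 4.50 in SFRP5 CLP, against -6.76 in WT CLP, so genotype and sex-linked expression cannot be told apart. The 4 Y-linked genes on the list were detected on all 4 arrays and were 1.76-fold to 3.16-fold lower in SFRP5 LSK than in WT LSK, and 2.04-fold to 4.80-fold lower in SFRP5 CLP than in WT CLP. Of 14 immediate early genes, 10 in each sort had at least double the signal in SFRP5 and 0 were lower by that margin. Over all genes measured, 6.57% were higher in SFRP5 by that margin in LSK and 4.25% in CLP, and 7.17% and 4.3% were lower. The only Sfrp5 probe differed by -0.08 between the genotypes in LSK and by 0.02 in CLP. Of 7 stromal markers, 6 were detected in SFRP5 LSK, 5 in WT LSK, 7 in SFRP5 CLP and 6 in WT CLP, with summed signals of 8.62, 4.56, 3.23 and 3.78 times the 75th percentile in that order. The sums do not show single markers: the osteoblast gene Bglap was 15.9-fold higher in SFRP5 LSK and 3.95-fold higher in SFRP5 CLP, and Col1a1 was at least 7.03-fold and at least 8.09-fold higher. Others went the other way: Pdgfrb was 4.5-fold lower in SFRP5 CLP, and Cxcl12 was 2.66-fold lower in SFRP5 LSK and 1.62-fold lower in SFRP5 CLP. Of the stromal markers detected on both arrays, 2 of 5 were at least 2-fold higher and 1 lower in LSK. In CLP, 2 of 6 were higher and 1 lower by that margin. Of 5 myeloid markers, 3 were at least 2-fold higher in SFRP5 LSK, with a median of 1.16, and 0 in SFRP5 CLP, where 1 was lower and the median was 0.02. The part of any of these in the values below was not tested. Kit and Ly6a, which mark the LSK gate, were lower in both CLP samples than in both LSK samples, and Il7r was higher. Flt3, which is not among the markers given for either gate, was also lower in CLP, 6.85-fold in SFRP5 and 6.52-fold in WT. Between the genotypes, Il7r was 2.65-fold higher in SFRP5 LSK than in WT LSK and 1.53-fold higher in SFRP5 CLP than in WT CLP. Kit, Ly6a and Flt3 lay within 2-fold between the genotypes in both sorts. The part of the Il7r difference in the values below was not tested.

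Among members detected on all 4 arrays, Tead2 varied most between them. Its brighter probe stood at -2.86 in SFRP5 LSK, against 0.17 in WT LSK, and at -0.12 in SFRP5 CLP, against -2.75 in WT CLP. WT LSK and SFRP5 CLP were thus the high arrays, at about the 75th percentile, and the other pair was low, yet still detected. The log2 difference between SFRP5 and WT was -3.03 ± 0.23 in LSK, which is 8.19-fold lower, and 2.63 ± 0.20 in CLP, which is 6.19-fold higher. Before any scaling, the median pixel signal of that spot was 75 in SFRP5 LSK, 288 in WT LSK, 244 in SFRP5 CLP and 60 in WT CLP, over a local background of 23, 27, 20 and 22 in the same order. The direction of the contrast was therefore already in the scanned values. Its size depended on the background correction: with another one (normexp) the difference was -1.60 in LSK and 1.36 in CLP.

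The second Tead2 probe, which cites the same transcript (NM_011565), repeated the difference in LSK but not its size in CLP. It stood at -3.34 in SFRP5 LSK, against -0.60 in WT LSK, and at -2.23 in SFRP5 CLP, against -2.68 in WT CLP. The difference was -2.74 ± 0.27 in LSK and 0.45 ± 0.23 in CLP, so on this probe the genotypes of the CLP sort lay within 2-fold. Both probes were highest in WT LSK, and both gave the same sign in each sort. Among all genes whose main probe differed at least 2-fold and that had a further detected probe, that further probe had the same sign in 63.5% of 488 genes in LSK and 65.1% of 281 in CLP, and also reached 2-fold in 24.8% and 21.4%. Which exons the 2 Tead2 probes cover was not analysed here.

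**Figure D1:**
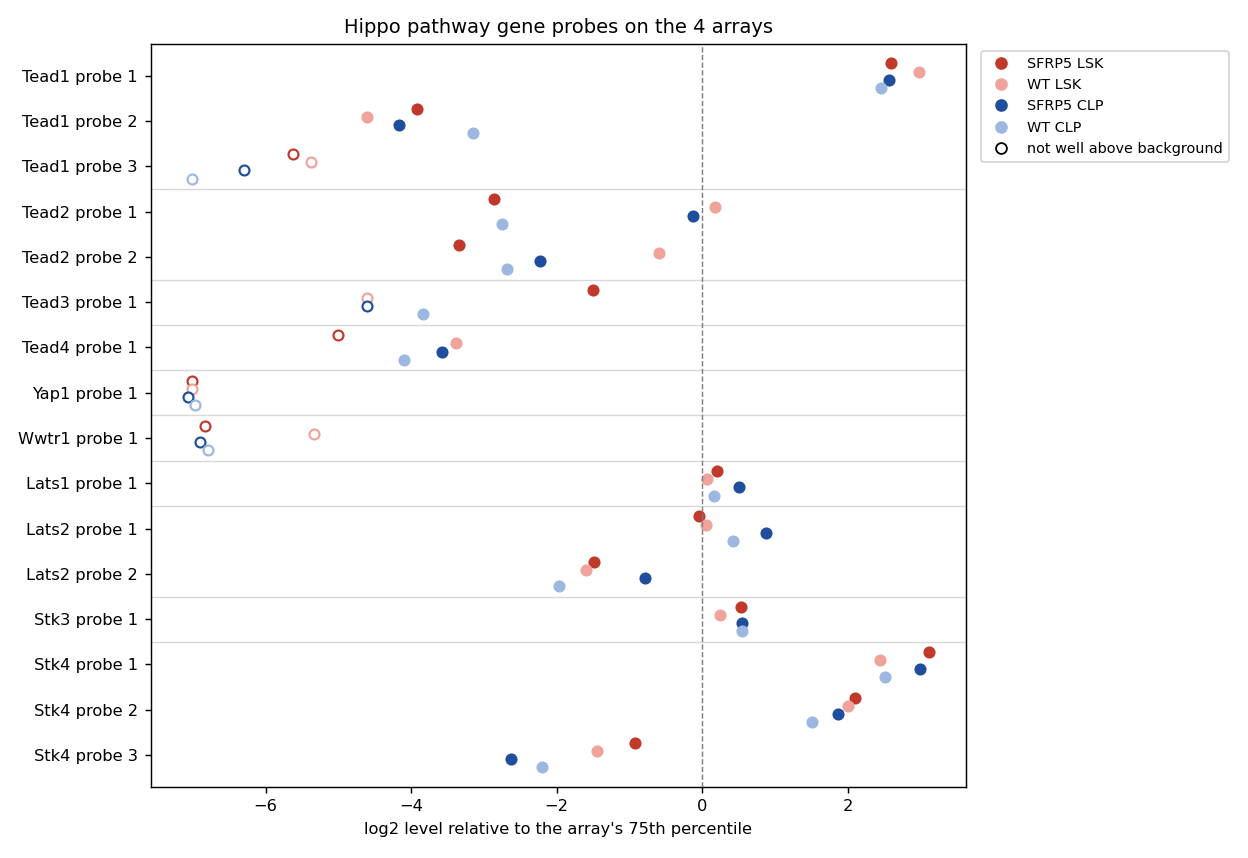
Log2 level of each of the 16 probes, relative to the 75th percentile of the array (dashed line), on the 4 arrays. Filled points are well above background and open points are not, and probes of a gene are numbered from the brightest. The brightest probe of each kinase spans less across arrays than either of the 2 Tead2 probes, and Yap1 and Wwtr1 are open on all 4 arrays.

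The promoters of Tead2 and Tead3 are shown because these genes held the widest genotype differences among the members, in opposite directions in LSK. The sequences are from RefSeq (GRCm38.p6), from 250 bases before to 50 after the start site, and capitals mark matches on either strand to the TEAD motif CATTCC, the AP-1 motif TGANTCA or the TCF/LEF motif CTTTGAT.
Tead2, chr7:45215542-45215841, + strand: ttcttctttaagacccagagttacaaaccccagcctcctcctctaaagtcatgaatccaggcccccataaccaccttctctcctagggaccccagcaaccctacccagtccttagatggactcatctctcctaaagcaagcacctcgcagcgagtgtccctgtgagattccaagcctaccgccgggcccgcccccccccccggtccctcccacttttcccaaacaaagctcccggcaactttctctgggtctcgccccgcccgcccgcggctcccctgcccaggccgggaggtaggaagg
Tead3, chr17:28350551-28350850, - strand: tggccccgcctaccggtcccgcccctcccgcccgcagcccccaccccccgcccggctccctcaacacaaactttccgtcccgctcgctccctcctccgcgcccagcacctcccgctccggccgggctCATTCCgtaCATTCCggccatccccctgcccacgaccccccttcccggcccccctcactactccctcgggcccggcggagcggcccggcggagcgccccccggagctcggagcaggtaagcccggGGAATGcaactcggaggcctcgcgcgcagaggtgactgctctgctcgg
The Tead2 window held none of the 3 motifs, while this Tead3 window, from the second of its 3 start sites, held the TEAD motif at 3 places, at -123, -114 and 2 bases from that site. It is the Tead3 window with the most matches: of the other windows, which overlap it in part, one held 1 match and the other 0. A promoter entry was found for 7 of the 10 members, with 11 start sites in all. The TEAD motif lay in 6 of these 11 windows, from the 4 genes Wwtr1, Yap1, Lats2 and Tead3, some of whose windows overlap, and in 14.7% of 32851 promoters of the same length. The AP-1 motif lay in 0 of the 11, against 7.81% of all promoters, and the TCF/LEF motif in 2 overlapping windows of Wwtr1, against 3.73%. GC content was 61.3% in the Tead2 window and 75.3% in the Tead3 window, against a median of 52.7% over all promoters. A match is a match of letters and was not tested as a binding site.

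Genes next to Tead2 on chromosome 7 did not follow its pattern. The nearest protein-coding genes on either side in the RefSeq table were Dkkl1, a gene expressed in male germ cells, and Cd37, a tetraspanin of leukocytes. Dkkl1 stood at -0.65 in SFRP5 LSK, against -0.16 in WT LSK, and at -0.63 in SFRP5 CLP, against -0.29 in WT CLP. Its genotype differences of -0.49 in LSK and -0.34 in CLP had the same sign in both sorts. One Cd37 probe stood at 4.09 in SFRP5 LSK, against 3.73 in WT LSK, and at 4.67 in SFRP5 CLP, against 4.41 in WT CLP. Its differences were 0.36 in LSK and 0.26 in CLP, and those of its other probe were -0.09 and 0.56. No probe of either neighbour differed 2-fold between the genotypes.

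**Figure D2:**
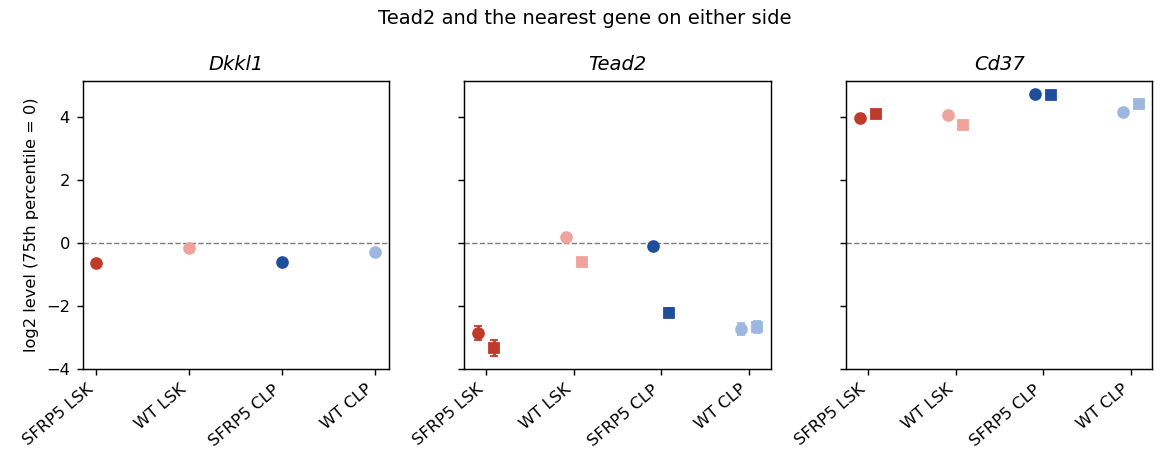
Log2 level (75th percentile of the array at 0) of Dkkl1, Tead2 and Cd37 in the 4 samples. Circles and squares are different probes of a gene and, for Tead2, bars are the spread between replicate spots of like signal. On its brighter probe Tead2 alternates between high and low arrays, with -2.86 in SFRP5 LSK, against 0.17 in WT LSK. Its second probe is high in WT LSK alone, and the neighbours of Tead2 stay within 2-fold between the genotypes.

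Across all genes, 13.7% of the 16125 measured on both LSK arrays differed at least 2-fold between the genotypes, with 6.57% higher and 7.17% lower in SFRP5. In CLP it was 8.56% of 15942, with 4.25% higher and 4.3% lower. By their brightest probes, 6 members were measured in LSK and 7 in CLP, and of these only Tead2, for which the set was noted, reached 2-fold in either sort. Of the further probes detected on both arrays, those of Tead1 (-1.01) and Lats2 (1.19) also reached 2-fold in CLP, and that of Tead2 did in LSK. Tead3 and Tead4, each below background on at least 1 array, are described below. Of 15179 genes detected on all 4 arrays, 1.36% differed at least 2-fold in opposite directions in the 2 sorts, and 0.692% were lower in SFRP5 LSK and higher in SFRP5 CLP, as Tead2 was, while 1.14% differed in the same direction in both. The difference between its genotype differences, 5.66 on the log2 scale, was rank 1 of those 15179 genes, and 3.19 on the second probe. These ranks restate the values by which Tead2 was noticed.

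**Figure D3:**
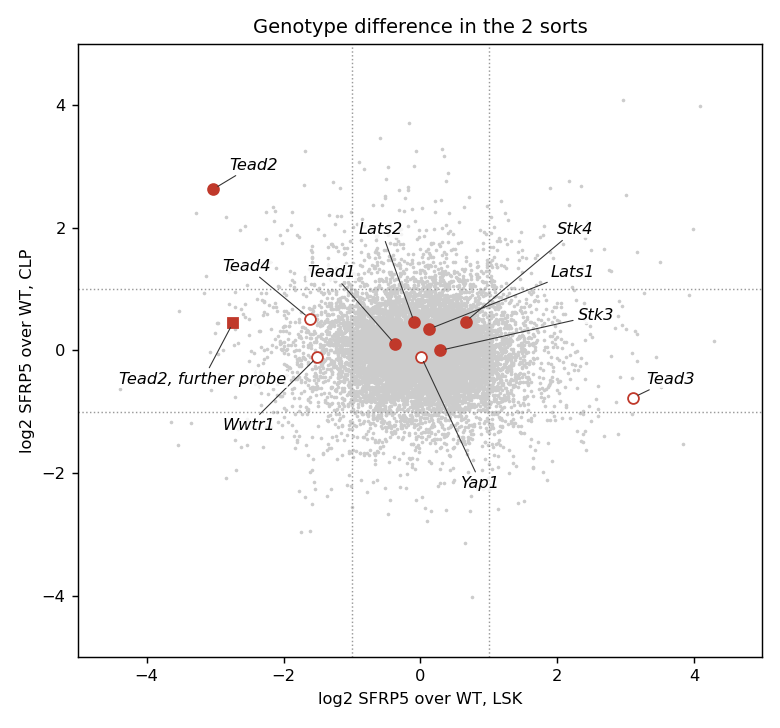
Log2 difference of SFRP5 over WT in LSK (x axis) and in CLP (y axis). Grey points are 15179 genes detected on all 4 arrays, filled red points are members detected on all 4 and open red points are members below background on at least 1 array, with dotted lines at 2-fold. Tead2 lies at -3.03 and 2.63, apart from the other members, and its second probe (square) at -2.74 and 0.45.

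Genes with clone-type or predicted symbols, such as those ending in Rik, were left out of the search for genes of like pattern. Among the remaining named genes, levels closest to Tead2 over the 4 arrays, by Euclidean distance between mean-centred levels, were those of Trib3 (distance 0.39), Ghdc (0.79), Ccn6 (0.91), Gnrh1 (0.98) and Rfx7 (1.02). Trib3, a pseudokinase induced by amino acid and endoplasmic reticulum stress, had genotype differences of -3.28 in LSK and 2.25 in CLP. Its levels were -4.26 in SFRP5 LSK, against -0.98 in WT LSK, and -1.37 in SFRP5 CLP, against -3.62 in WT CLP. Rfx7, a winged-helix transcription factor, had differences of -1.80 in LSK and 1.88 in CLP, and its further probe gave -2.15 and 2.02. Gnrh1, the gene of gonadotropin-releasing hormone, had a further probe that was above background on 0 arrays. Trib3, Ghdc and Ccn6 had 1 probe each. Likeness over 4 arrays describes these arrays alone, and all 5 genes were selected for it.

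**Figure D4:**
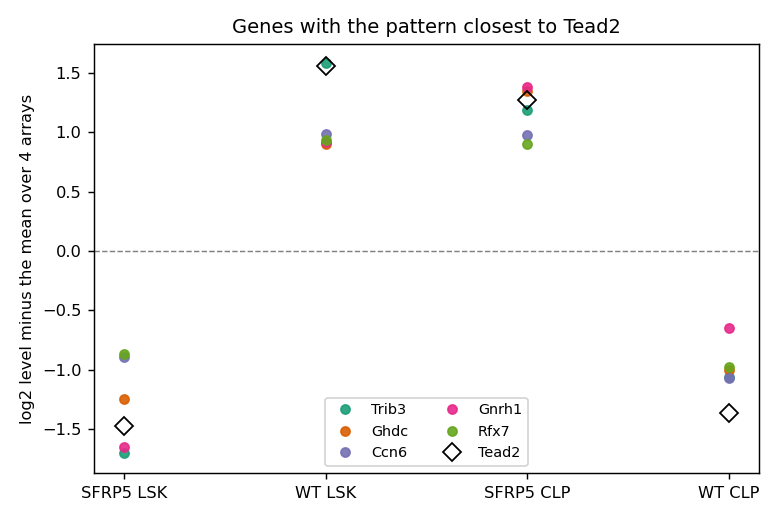
Log2 level minus the gene's mean over the 4 arrays, for Tead2 (open diamonds) and the 5 genes closest to it, clone-type and predicted symbols left out. All 6 genes lie above their mean in WT LSK and SFRP5 CLP and below it in SFRP5 LSK and WT CLP.

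The other TEAD factors differed from Tead2 and from each other. Tead3 had 1 probe, at -1.50 in SFRP5 LSK, against -4.61 in WT LSK, and at -4.61 in SFRP5 CLP, against -3.83 in WT CLP. It was detected in SFRP5 LSK and WT CLP alone, the arrays on which Tead2 was low. Before any scaling, however, its median pixel signal was 128 in SFRP5 LSK, 43 in WT LSK, 39 in SFRP5 CLP and 42 in WT CLP. The local background was 19, 21, 21 and 21 in the same order. Only SFRP5 LSK thus stood apart in the scanned values, and the detected WT CLP spot read no higher than the undetected WT LSK spot. By the probe's readings, SFRP5 exceeded WT 8.66-fold in LSK, and Tead3 was 1.71-fold lower in SFRP5 CLP than in WT CLP. Among the samples of SFRP5 mice, Tead3 was 8.62-fold lower in CLP than in LSK, and among those of WT mice 1.72-fold higher. Each of these folds rests on a reading that was not above background. The spot error of the genotype difference was 0.49 in LSK and 0.46 in CLP on the log2 scale. For other genes, "at least" marks a bound. It sets the detected array against the lowest signal that counts as detected on the other array, or against the dim probe itself where it reads above that limit. Spot error or another background correction can take such a bound lower.

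Tead4, which in the early mouse embryo specifies the trophectoderm, was dim. Its probe stood at -5.0 in SFRP5 LSK, not above background, against -3.38 in WT LSK, and at -3.58 in SFRP5 CLP, against -4.10 in WT CLP. By its readings it was 3.07-fold lower in SFRP5 LSK than in WT LSK, and its difference in CLP was 0.52 ± 0.40. In direction Tead4 followed Tead2 in both sorts, but with another background correction (normexp) its differences were -0.23 in LSK and -0.08 in CLP. Tead3 under that correction differed between the genotypes by 1.23 in LSK and -0.36 in CLP. Between the sorts it then differed by -1.28 in SFRP5 and 0.31 in WT.

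Tead1, a factor needed for heart development, had 3 probes that did not behave alike. The brightest stood at 2.60 in SFRP5 LSK, against 2.98 in WT LSK, and at 2.56 in SFRP5 CLP, against 2.46 in WT CLP, a high and even signal on all 4 arrays. Its genotype differences were -0.37 ± 0.09 in LSK and 0.10 ± 0.08 in CLP. The second probe lay far below the 75th percentile, at -3.92 in SFRP5 LSK, -4.60 in WT LSK, -4.16 in SFRP5 CLP and -3.15 in WT CLP, and gave differences of the other sign, 0.69 ± 0.58 in LSK and -1.01 ± 0.38 in CLP. The third was detected on 0 arrays. Averaged over the probes, the differences were 0.03 in LSK and -0.07 in CLP. The Tead1 values therefore depend on the probe, although all 3 cite transcript NM_001166584, and a lower signal can come from the probe as well as from the RNA it meets.

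The coactivators through which Hippo signalling reaches the TEAD factors were not detected. Yap1 had 1 probe, at -7.01 in SFRP5 LSK, against -7.01 in WT LSK, and at -7.07 in SFRP5 CLP, against -6.97 in WT CLP. Wwtr1 had 1 probe, at -6.83 in SFRP5 LSK, against -5.33 in WT LSK, and at -6.90 in SFRP5 CLP, against -6.79 in WT CLP. Neither passed the background flag on any of the 4 arrays, where the lowest detected signals were -5.08 in SFRP5 LSK, -5.07 in WT LSK, -5.16 in SFRP5 CLP and -5.74 in WT CLP. With 1 probe each, this limits the signal of those probes and does not show that the RNA was absent, and no fold is given.

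The brightest probes of the kinases spanned less over the 4 arrays than those of Tead2. Stk3 stood at 0.53 in SFRP5 LSK, against 0.24 in WT LSK, and at 0.55 in both SFRP5 CLP and WT CLP. Its 4 levels spanned 0.31 on the log2 scale, and 5.21% of the genes detected on all 4 arrays spanned less, with a median span of 1.0. The brightest probes of Stk4 and Lats2 spanned 0.66 and 0.92, and 26.7% and 44.7% of those genes spanned less. Lats1 stood at 0.20 in SFRP5 LSK, against 0.07 in WT LSK, and at 0.51 in SFRP5 CLP, against 0.16 in WT CLP, a span of 0.44. Its genotype differences were 0.13 ± 0.10 in LSK, where the authors' scaling left 0.0, and 0.35 ± 0.10 in CLP.

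Stk4 had 3 probes, all detected on all 4 arrays. The brightest stood at 3.11 in SFRP5 LSK, against 2.44 in WT LSK, and at 2.99 in SFRP5 CLP, against 2.51 in WT CLP, with differences of 0.66 ± 0.09 in LSK and 0.47 ± 0.08 in CLP. The second probe also gave higher values in SFRP5, by 0.10 ± 0.09 in LSK and 0.35 ± 0.09 in CLP. Both cite transcript NM_021420, and both put SFRP5 above WT in each sort, within 2-fold. The third cites a testis cDNA clone (AK030098) and stood at -0.93 in SFRP5 LSK, against -1.45 in WT LSK, and at -2.63 in SFRP5 CLP, against -2.20 in WT CLP. On that probe Stk4 was lower in CLP than in LSK, by -1.71 ± 0.18 in SFRP5 and -0.76 ± 0.19 in WT.

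Lats2 had 2 probes, which cite transcripts NM_015771 and NM_153382. Whether either probe reads its transcript alone was not analysed here. The brighter probe stood at 0.88 in SFRP5 CLP, against 0.42 in WT CLP, and at -0.04 in SFRP5 LSK, against 0.05 in WT LSK. The second probe stood at -0.78 in SFRP5 CLP, against -1.97 in WT CLP, and at -1.48 in SFRP5 LSK, against -1.60 in WT LSK. SFRP5 CLP was the highest of the 4 arrays on both. The genotype difference in CLP was 0.46 ± 0.10 on the brighter probe and 1.19 ± 0.17 on the second, and in LSK -0.09 ± 0.10 and 0.13 ± 0.15.

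Between the sorts, 22.5% of 15713 genes measured in SFRP5 differed at least 2-fold, with 11.5% higher and 11.0% lower in CLP. In WT it was 32.1% of 16016, with 17.8% higher and 14.3% lower. By their brightest probes, 6 members were measured in SFRP5 and 7 in WT, and in each genotype 1 reached 2-fold, which was Tead2. Of the further probes detected on both arrays, that of Tead2 did too, in both genotypes (1.11 in SFRP5 and -2.08 in WT). So did that of Stk4 for the testis clone (-1.71 in SFRP5) and the second of Tead1 (1.45 in WT). Tead2 was higher in CLP than in LSK in SFRP5, by 2.74 ± 0.23, and lower in CLP than in LSK in WT, at -2.92 ± 0.20. These values come from the same 4 arrays as the genotype differences and add no separate evidence. Summed signals of 5 erythroid markers were 49.6 and 76.7 times the 75th percentile in SFRP5 CLP and WT CLP, against 3.23 and 2.86 in SFRP5 LSK and WT LSK. Those of 5 myeloid markers were 296.0 and 259.0 in the CLP samples, against 54.0 and 31.0 in the LSK samples, in the same order of genotypes. B lineage sums were 37.5 and 29.6, against 3.23 and 3.23, and basophil and mast cell sums 38.7 and 55.2, against 6.4 and 6.13. Megakaryocyte sums were also higher in CLP, and T lineage, endothelial and stromal sums were lower. Single markers could differ from their sum: the myeloid gene Ngp was 2.01-fold lower in SFRP5 CLP than in SFRP5 LSK. The part of these cell types in the member values was not tested. The second Tead2 probe gave 1.11 ± 0.30 in SFRP5 and -2.08 ± 0.19 in WT between the sorts. For Lats2, CLP minus LSK was 0.92 ± 0.09 in SFRP5 and 0.37 ± 0.11 in WT on the brighter probe, and 0.70 ± 0.14 in SFRP5 and -0.36 ± 0.18 in WT on the second. Its direction in WT therefore differed between the probes, and the authors' scaling gave -0.04 there on the brighter one. The median over measured members was 0.16 in SFRP5 and 0.07 in WT, against 0.02 over all genes in each.

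Genes that act above the kinases or hold them in place were listed with knowledge of earlier results of these arrays. Of 23 such genes, 19 were measured on both LSK arrays. Of the 19, 2 were lower by 2-fold or more in SFRP5 LSK and 0 higher by that margin, against 7.17% and 6.57% over all genes. The list median was -0.07, against 0.02 over all genes. Those lower were Wtip, a LIM protein that binds LATS kinases, at -2.60, and Frmd6, a FERM-domain protein upstream of the kinases, at -1.07. The highest values were those of Ptpn14, a phosphatase that binds YAP1, at 0.95 and of Rassf1, a partner of the Ste20-type kinases, at 0.74. Wtip stood at -4.35 in SFRP5 LSK, against -1.75 in WT LSK, and was not above background on either CLP array.

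In CLP, 17 of the 23 were measured, with 2 at least 2-fold higher in SFRP5 and 0 lower, against 4.25% and 4.3% over all genes. The list median was 0.18, against -0.04 over all genes. Those higher were Wwc2, a scaffold of the kinase complex, at 1.33 and Amot, an angiomotin that binds YAP1, at 1.04. Frmd6 was higher by a bound of at least 4.05-fold. Among genes detected on both CLP arrays, the lowest were the Ste20-type kinase genes Taok2 at -0.26 and Taok1 at -0.16. By bounds, Amotl1 was at least 1.73-fold and Fat4 at least 1.38-fold lower in SFRP5 CLP. Amot stood at 2.76 in SFRP5 LSK, against 2.34 in WT LSK, and at 1.35 in SFRP5 CLP, against 0.31 in WT CLP. It lies on the X chromosome by the array's annotation, and Xist separated the genotypes. The brightest probes of Sav1, Mob1a and Mob1b, adaptors of the kinases, lay within 2-fold between genotypes in both sorts.

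Of the 4 Vgll genes, whose products compete with YAP1 for TEAD factors or act as their cofactors, Vgll2 and Vgll4 were measured. Vgll4, which represses TEAD activity, stood at 2.53 in SFRP5 LSK, against 2.42 in WT LSK, and at 1.25 in SFRP5 CLP, against 0.98 in WT CLP. It was lower in CLP than in LSK by -1.28 in SFRP5 and -1.45 in WT, a difference of the sorts in both genotypes. Between the genotypes Vgll4 differed by 0.10 in LSK and 0.27 in CLP, and Vgll2 by -0.44 and 0.20.

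Genes known mainly from human cells as targets of YAP1, TAZ and TEAD were also listed. Of 22, 12 were measured on both LSK arrays, as were 16125 of all 24278 genes. Of the 12, 0 were at least 2-fold higher and 1 lower, against 6.57% and 7.17% over all genes. The list median was -0.03, against 0.02 over all genes. The lower gene was Axl, a receptor tyrosine kinase, at -2.89 in SFRP5 LSK, against -0.52 in WT LSK, a difference of -2.36. Other values at the ends of the list were -0.70 for the kinase gene Nuak2, 0.59 for the stress gene Gadd45a and 0.95 for Ptpn14. In CLP 11 were measured, with 0 at least 2-fold apart, against 8.56% over all genes. Their median was 0.13, against -0.04, between Fjx1 at -0.68 and Lats2 at 0.46.

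The read-outs most used for the pathway gave little signal. Ccn1 and Ankrd1 were above background on 0 arrays. Ccn2 was detected in LSK alone, at -3.91 in SFRP5 LSK, against -3.92 in WT LSK. F3, which encodes tissue factor, was detected on the SFRP5 arrays alone and was at least 4.11-fold higher in LSK and at least 3.03-fold higher in CLP. Arhgef17 was detected in WT LSK alone and was at least 2.45-fold lower in SFRP5 LSK. Of the 22 targets, 8 were below background on both LSK arrays and 10 on both CLP arrays. These read-outs, F3 and Arhgef17 are named after their values were seen.

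**Figure D5:**
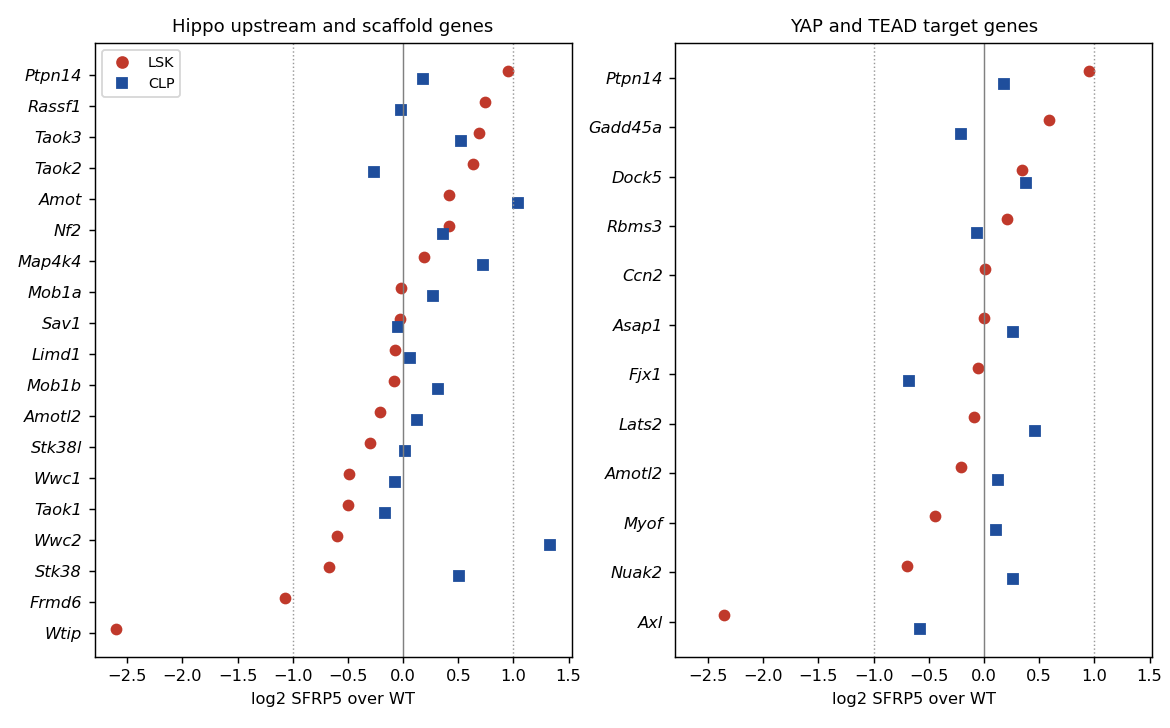
Log2 difference of SFRP5 over WT in LSK (red circles) and CLP (blue squares) for the genes of 2 lists that were well above background on both arrays of the comparison, with dotted lines at 2-fold. Most points lie within 2-fold, with Wtip at -2.60 and Axl at -2.36 in LSK the lowest.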

How the data were processed

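Cy3-labelled cDNA of 4 samples, made from 6.1 ng of total RNA by whole-transcriptome amplification per the labels' protocols, was read on 1-colour Agilent arrays. Per the file headers, the deposited scans give spot intensity that was background-subtracted and detrended within the array by Feature Extraction 10.10.1.1, on a design annotated on mm9. The authors' deposited signal table holds the same intensity times 1 factor per array (4.91 to 6.42, computed here), of unstated origin. Intensities of 59305 spots outside the controls were divided by their array's 75th percentile and taken to log2 (that percentile was 277.5 in SFRP5 LSK, 276.5 in WT LSK, 290.9 in SFRP5 CLP and 227.2 in WT CLP). Spots with an outlier flag were left out (128 to 160 per array, 0 of them of members) and no spot was saturated. From 65.5% to 70.1% of spots were well above background.

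Spots of a probe were averaged, and the probe with the highest mean stood for its gene. Symbols were updated by Entrez ID through the RefSeq table (GRCm38.p6), which held the IDs of 30994 probes. It gave names and the order of genes, and RefSeq's promoter table of that build gave the 2 printed windows with their coordinates. A comparison counts genes well above background on both arrays, at 2-fold. The spot error is the median SD of the 50 replicated probes nearest in level, of 399 with at least 5 spots. No test was made, with 1 array per group. The files hold no mean pixel signal, so normexp (offset 50, limma 3.58.1 in R 4.3.3) used the median. Other steps ran in Python 3.11.15. Members and lists were chosen with earlier results of these data known. The text names all members, the 2 highest and 2 lowest genes per list and genotype comparison, the neighbours of Tead2 and the 5 genes closest to it in pattern. Clone-type and predicted symbols were left out of that last choice. Alternatives were quantile, cyclic loess, normexp and the authors' scaling, the mean of a gene's probes, other filters on dim probes and 1.5-fold. The authors' ratio table was not used here.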

Additional observations from a re-analysis of the deposited data

Results flagged for a closer look

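The genotype difference of Tead2 had opposite signs in the 2 sorts, with each array of SFRP5 on the other side of its WT array: -3.03 in LSK and 2.63 in CLP on the brighter probe, or 5.66 between them. With 1 array per group this difference between the sorts was not tested. It was 3.19 on the second probe. Tead2 was noted for it when the genes were chosen.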

How the results depend on the processing

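Tead2 kept its direction in all 4 comparisons under the 5 other settings of scaling, background and probe averaging, with ranges of -3.16 to -1.60 for genotype in LSK, 1.36 to 2.73 in CLP, 1.38 to 2.80 between sorts in SFRP5 and -3.34 to -1.57 in WT. Normexp gave the values nearest to 0 in each (-1.60, 1.36, 1.38 and -1.57). The mean of its probes, which is also the mean of those above background on all arrays, gave 1.54 for genotype in CLP, 1.93 between sorts in SFRP5 and -2.50 in WT. The second probe, taken alone as an alternative added after seeing the data, gave -2.74, 0.45, 1.11 and -2.08. Cyclic loess gave -2.69 and the authors' scaling -3.34 between sorts in WT. The count of members 2-fold apart, 1 in each comparison, was 4 without the filter on dim probes for genotype in LSK, 3 between sorts in SFRP5 and 2 in WT, which takes in probes below background. At 1.5-fold it was 2 in all but genotype in CLP, and with the authors' scaling it was 2 between sorts in WT. That scaling moved the median of all genes by -0.13, 0.10, -0.18 and -0.42 in the 4 comparisons. Of 20 member values larger than the spot error, 6 changed sign or came to 0 under a setting, none of them Tead2. No paired analysis was possible because each group has 1 array. Signal near background limits Tead3, Tead4, Yap1 and Wwtr1.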
